A study of Mus musculus with 24 samples.

Results

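The genes described here encode blood coagulation factors, complement components and other proteins that are secreted into the plasma. They were chosen by gene name, and 37 of the 27962 gene names on the array were members. Together they had 50 of the 41174 probes, and each gene was represented by its probe with the highest mean intensity. Colon and liver were taken from 12 female C57BL/6 mice at 12 weeks of age, one mouse giving both tissues. The mothers of all mice ate a diet rich in fat with little selenium and folate (HF-low) from 7 days before mating until weaning. At weaning, at about 28 days, 6 offspring stayed on that diet (HF-low-low) and 6 were moved to one equally rich in fat whose selenium and folate were sufficient (HF-low-suf). Every mouse was therefore fed a high-fat diet and had an HF-low mother, and no group was fed a low-fat diet. RNA of whole tissue was labelled with Cy3 and hybridised on 24 arrays, 6 per tissue and diet, against a Cy5-labelled reference pool, which the labels give as colon and liver RNA of all mice and the study's methods as intestinal and liver RNA.

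Clotting runs as a cascade of serine proteases that circulate as inactive zymogens and ends in the cleavage of fibrinogen to fibrin. Complement runs in a similar way, from the C1 complex of the classical pathway or the mannose-binding lectins of the lectin pathway to C3 and then to the pore formed by the terminal components. Most of these proteins are made by hepatocytes and secreted into the blood. Some are also made elsewhere: C1q comes largely from macrophages, and C1r, C1s, C2, C3 and protein S are also produced by macrophages, fibroblasts, endothelium or epithelium. Those 7 genes (C1qa, C1qb, C1r, C1s, C2, C3 and Pros1) are called locally made below, from such background knowledge and not from these arrays.

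All values below are log2 ratios of the tissue sample to the reference pool, so that 0 means the level of the pool and a difference of 1 means a doubled ratio. Values of different genes were not compared as absolute levels. The make-up of the pool was not known in full: the skeletal muscle list averaged -5.43 to -2.42 and the exocrine pancreas list -2.99 to -0.98 over the 24 arrays, below the pool on every one. The tissues matched their labels: all 10 hepatocyte marker genes were higher in liver and all 10 colon epithelium marker genes were higher in colon. Cy3 signals had a median 3.78 to 7.20 times their background, and 26.1% to 71.9% of spots were well above background. One colon of the HF-low-suf group (replicate 5) had the brightest reference channel, at 18.1 times background, and one HF-low-suf liver (replicate 4) lost 8.75% of its spots as outliers. Adipocyte markers averaged 2.75 in HF-low-suf liver replicate 1 and at most -0.07 in the other livers. Skeletal muscle markers averaged -2.42 in HF-low-suf liver replicate 2 and at most -3.70 in the other livers. These 4 arrays, all of HF-low-suf, are the arrays that stood apart in the alternatives below. In whole tissue, fewer cells of a type and less RNA per cell cannot be told apart.

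The first comparison asked where these genes were expressed. All 37 members had a higher mRNA abundance in liver than in colon (adjusted P below 0.05 and fold change above 1.5 in limma), against 11.4% of all probes called higher in liver. No member was called higher in colon, where the share of all probes was 12.2%. The median difference of the members was 4.89 on the log2 scale, while the median over all probes was 0.019. For 35 members the lowest liver lay above the highest colon, which held for 5.97% of all probes. The 2 members whose tissues overlapped were C1qa and C1qb. When single mice were left out, no call was lost except that of C1qa, which is described with its limits below.

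**Figure D1:**
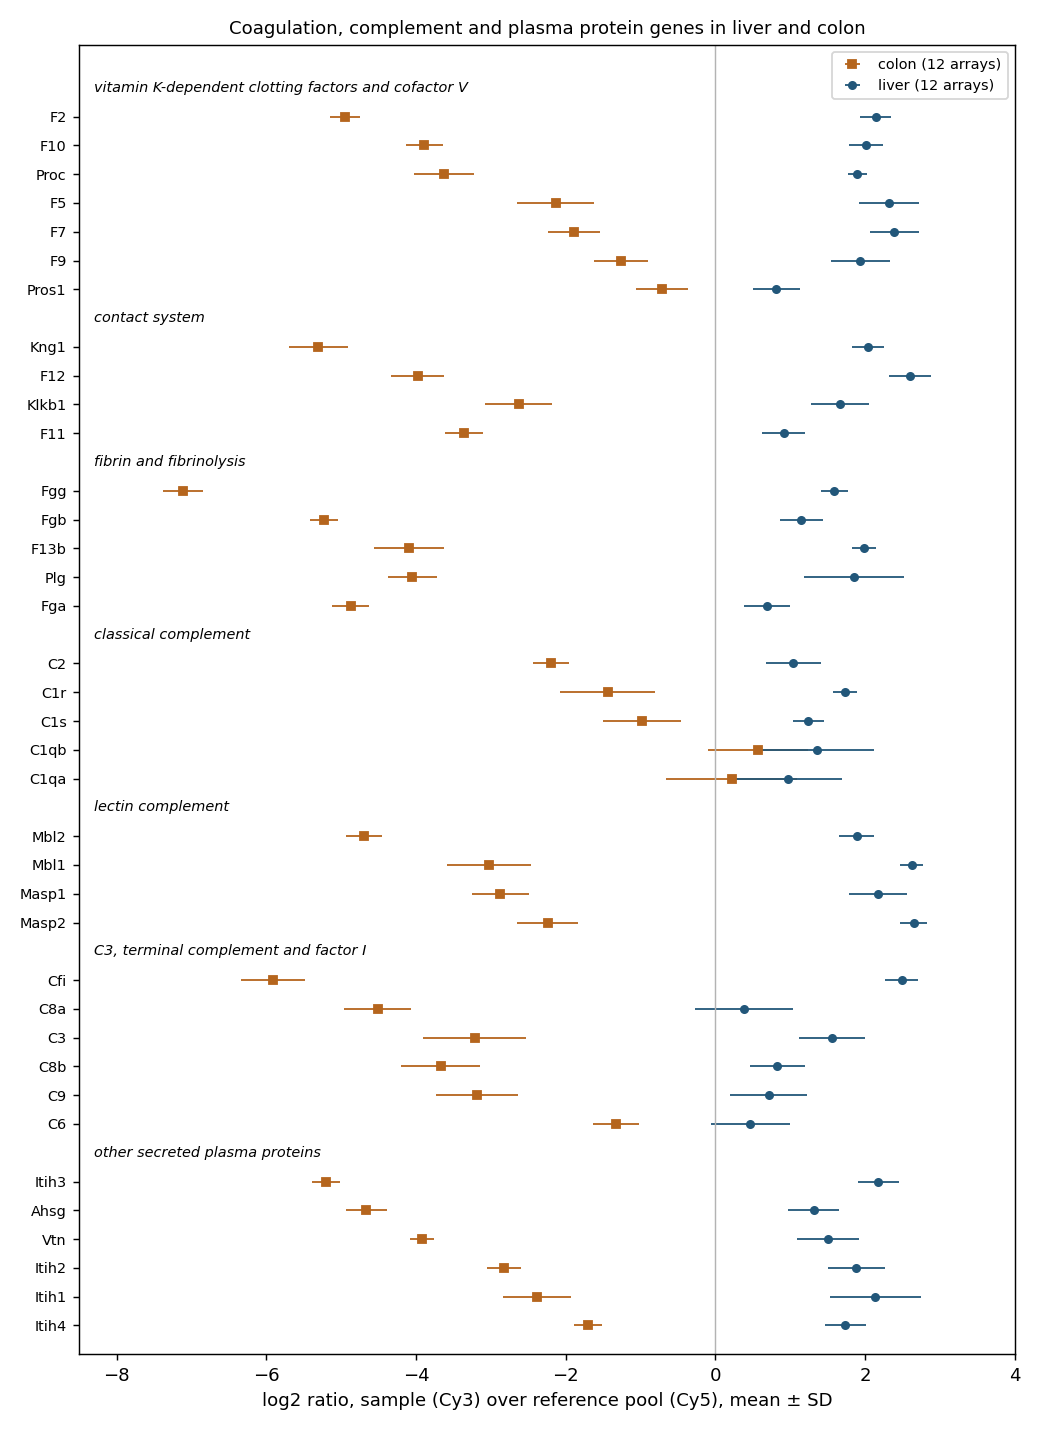
Mean log2 ratio to the reference pool (horizontal axis) of each of the 37 genes, grouped by role, in 12 livers (circles) and 12 colons (squares; 11 for Itih3), with bars for 1 SD. Every liver mean lies to the right of the colon mean, from a difference of 8.71 for Fgg to 0.75 for C1qa. The colon means of F13b, C8b and C9 rest on signals not well above background, and those of F5, Klkb1, C8a, Cfi, Mbl1, F7, F11, C6 and Masp1 mostly so.

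The members differed in how far they could be measured in colon. In liver, 35 members were well above background on all 12 arrays, and C6 and C9 on 11. In colon, 20 members were well above background on all 12 arrays, 5 on 6 to 11 arrays and 9 on 1 or 2 arrays. These 9 were F5, Klkb1, C8a, Cfi and Mbl1, on 1 colon array each, and F7, F11, C6 and Masp1, on 2 each, and their differences below rest mostly on colon signals that were not well above background. With signals processed by Feature Extraction, the scanner software, all 9 differed by more than in the values given below: F5 by 6.37, F7 by 5.64, F11 by 5.71, Klkb1 by 6.28, Mbl1 by 7.46, C6 by 3.01, C8a by 6.52, Cfi by 10.15 and Masp1 by 6.92. For F13b, C8b and C9 no colon array was well above background, so that only a lower limit of the difference is known. With the colon signal set to the lowest signal well above background, from the Cy3 channel after normalisation between arrays, liver was at least 38.6-fold higher for F13b, 15.9-fold for C8b and 8.85-fold for C9. The added offset and the dim signals shrink the ratios of weakly expressed genes, so an order of genes by their difference is in part an order by brightness.

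Among the vitamin K-dependent clotting factors and their cofactor, prothrombin (F2), the precursor of thrombin, had the largest difference. It ranged from 1.79 to 2.38 in liver and from -5.35 to -4.71 in colon, a difference of 7.09 ± 0.089 (SE). Factor X (F10), which cleaves prothrombin, differed by 5.90, and Proc, the precursor of the anticoagulant protease protein C, by 5.53. Factor IX (F9), the factor lacking in haemophilia B, differed by 3.19. Factor V (F5), the cofactor of factor X, and factor VII (F7), the partner of tissue factor, both dim in colon, had fitted differences of 4.45 and 4.28. Protein S (Pros1), the cofactor of protein C, had the smallest difference of this group. Its lowest, median and highest ratios were 0.55, 0.80 and 1.45 in HF-low-low liver and 0.29, 0.70 and 1.09 in HF-low-suf liver. In colon they were -1.11, -0.77 and -0.18 on HF-low-low and -1.27, -0.67 and -0.38 on HF-low-suf. The tissues did not overlap, and the difference of 1.53 ± 0.12 (SE) was 2.88-fold (adjusted P = 5.14e-11), with liver higher in 12 of 12 mice.

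All 4 genes of the contact system, which starts clotting on surfaces and releases bradykinin, were higher in liver. Kininogen (Kng1), from which bradykinin is cut, had the fourth largest difference of all members. Its lowest, median and highest ratios were 1.73, 2.10 and 2.25 in HF-low-low liver, 1.66, 2.14 and 2.25 in HF-low-suf liver, -6.08, -5.36 and -4.87 in HF-low-low colon and -5.51, -5.36 and -4.76 in HF-low-suf colon. The tissues were far apart, by 7.35 ± 0.12 (SE). A second Kng1 probe, well above background on 6 colon arrays, differed by 6.45. Factor XII (F12), the protease that starts the contact pathway, differed by 6.59. Plasma prekallikrein (Klkb1), which cuts kininogen, and factor XI (F11), which activates factor IX, both dim in colon, had fitted differences of 4.30 and 4.27.

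Fibrinogen, the precursor of the fibrin clot, is built of 3 chains encoded by neighbouring genes on chromosome 3. The gamma chain gene Fgg showed the largest difference of the 37 members, except with signals processed by Feature Extraction, where Cfi (10.15) lay above it. Its lowest, median and highest ratios were 1.35, 1.55 and 1.78 in HF-low-low liver and 1.29, 1.69 and 1.81 in HF-low-suf liver. In colon they were -7.48, -7.09 and -6.62 on HF-low-low and -7.48, -7.19 and -6.78 on HF-low-suf. Every liver thus lay far above every colon, with a difference of 8.71 ± 0.095 (SE), or 417-fold (adjusted P = 2.21e-29). The beta chain gene Fgb differed by 6.38 and the alpha chain gene Fga by 5.57. All of these were well above background in the 12 colons. Plasminogen (Plg), the zymogen of the fibrin-degrading protease plasmin, differed by 5.91, and for F13b, the carrier subunit of the fibrin-crosslinking factor XIII, only the lower limit is known.

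The regions upstream of the fibrinogen genes, each strongly higher in liver, are shown beside those of Ahsg, another strongly liver-weighted gene. Those of Pros1 and C1qb, which had small differences, are also shown. All of these regions are the 250 bases before the RefSeq start, 5′ to 3′ on the strand of the gene, in build GRCm38.p6: chr3:83025903-83026152 (plus) for Fga, chr3:83049864-83050113 (minus) for Fgb, chr3:83007474-83007723 (plus) for Fgg, chr16:22891765-22892014 (plus) for Ahsg, chr16:62854057-62854306 (plus) for Pros1 and chr4:136886201-136886450 (minus) for C1qb. Capitals mark matches on either strand to GTTAAT, a half-site of the hepatocyte factor HNF1, to TGTTTAC, bound by forkhead factors, or to TTGCNNAA, bound by C/EBP factors, and no match overlaps another.
Fga: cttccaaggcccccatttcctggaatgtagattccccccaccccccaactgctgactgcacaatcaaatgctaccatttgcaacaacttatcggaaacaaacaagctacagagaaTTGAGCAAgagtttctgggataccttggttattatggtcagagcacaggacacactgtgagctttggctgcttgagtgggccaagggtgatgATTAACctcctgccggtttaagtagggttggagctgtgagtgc
Fgb: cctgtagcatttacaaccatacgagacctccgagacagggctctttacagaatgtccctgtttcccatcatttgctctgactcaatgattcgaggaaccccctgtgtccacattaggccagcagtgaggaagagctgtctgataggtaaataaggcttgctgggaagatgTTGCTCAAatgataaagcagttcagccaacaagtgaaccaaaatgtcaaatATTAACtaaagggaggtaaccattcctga
Fgg: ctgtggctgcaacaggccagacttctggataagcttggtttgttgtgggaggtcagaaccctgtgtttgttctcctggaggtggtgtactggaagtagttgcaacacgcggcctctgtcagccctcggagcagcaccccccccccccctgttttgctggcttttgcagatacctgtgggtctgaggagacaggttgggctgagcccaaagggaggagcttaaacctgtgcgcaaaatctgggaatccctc
Ahsg: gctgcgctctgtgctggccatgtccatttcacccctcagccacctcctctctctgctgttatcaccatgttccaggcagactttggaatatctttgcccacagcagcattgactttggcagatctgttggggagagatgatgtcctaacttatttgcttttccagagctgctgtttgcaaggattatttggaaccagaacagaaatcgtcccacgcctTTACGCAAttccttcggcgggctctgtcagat
Pros1: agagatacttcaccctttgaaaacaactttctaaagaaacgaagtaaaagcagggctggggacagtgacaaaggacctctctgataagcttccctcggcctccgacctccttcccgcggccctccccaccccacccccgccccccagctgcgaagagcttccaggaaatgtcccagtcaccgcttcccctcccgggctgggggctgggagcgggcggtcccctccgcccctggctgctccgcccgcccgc
C1qb: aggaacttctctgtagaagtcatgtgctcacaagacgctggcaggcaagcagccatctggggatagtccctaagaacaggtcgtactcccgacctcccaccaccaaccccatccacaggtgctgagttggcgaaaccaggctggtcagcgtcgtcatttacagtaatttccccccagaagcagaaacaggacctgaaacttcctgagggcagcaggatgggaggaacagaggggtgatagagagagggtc
Fga held an HNF1 half-site 43 to 38 bases before the start and a C/EBP match 135 to 128 bases before it. Fgb held the same pair 29 to 24 and 80 to 73 bases before the start. Ahsg held a C/EBP match 32 to 25 bases before the start, and the windows of Fgg, Pros1 and C1qb held no match. RefSeq windows were at hand for 28 of the 37 members. The HNF1 half-site was present in 7 of the 28, or 25.0%, against 6.43% of all 32851 windows. The C/EBP letters were present in 9, or 32.1%, against 9.56% of all windows, and the forkhead letters in 2, or 7.14%, against 3.17%. These are matches of letters, and binding was not measured.

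The classical pathway of complement had the smallest differences of the 7 role groups, with a median of 2.22. C1qa and C1qb encode chains of C1q, the part of C1 that recognises antibody. C1qa had lowest, median and highest ratios of -0.27, 0.73 and 2.43 in HF-low-low liver, 0.48, 0.97 and 1.70 in HF-low-suf liver, -1.14, 0.94 and 1.15 in HF-low-low colon and -0.86, 0.028 and 0.84 in HF-low-suf colon. The tissues overlapped widely. The difference was 0.75 ± 0.28 (SE), or 1.68-fold (adjusted P = 0.034), and liver was higher in 9 of 12 mice (exact sign-flip P = 0.026). C1qb had ratios of 0.30, 0.97 and 2.97 in HF-low-low liver, 0.91, 1.21 and 2.29 in HF-low-suf liver, -0.34, 0.86 and 1.45 in HF-low-low colon and -0.051, 0.42 and 1.05 in HF-low-suf colon. Its difference of 0.78 ± 0.25 (SE) was 1.72-fold (adjusted P = 0.012), with liver higher in 10 of 12 mice (exact sign-flip P = 0.0083). Both differences are fragile. Without the mice that gave the 4 arrays that stood apart, C1qa differed by 0.58 (adjusted P = 0.36) and C1qb by 0.59 (adjusted P = 0.29). This left out 4 of the 6 HF-low-suf mice, so these P values also rest on fewer mice. With arrays centred on the median, C1qa differed by 0.33 (adjusted P = 0.44) and C1qb by 0.35 (adjusted P = 0.26). The call of C1qa was also lost when any one of 7 mice was left out, with values from 0.65 to 0.73 and adjusted P from 0.053 to 0.086, whereas C1qb kept its call with each mouse left out.

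The C1 proteases C1r and C1s, which are activated by C1q, and C2, which C1s cuts, were higher in every liver than in any colon. C1r had lowest, median and highest ratios of 1.54, 1.80 and 1.91 in HF-low-low liver, 1.504, 1.66 and 2.005 in HF-low-suf liver, -2.29, -1.05 and -0.64 in HF-low-low colon and -2.42, -1.30 and -1.02 in HF-low-suf colon. The liver values of this probe were tightly packed (SD 0.16), the colon values were spread widely, and the difference was 3.17 ± 0.17 (SE). A second C1r probe, well above background on 7 colon arrays, differed by 2.05, with a liver SD of 0.64. C1s had ratios of 1.04, 1.35 and 1.54 in HF-low-low liver, 0.86, 1.16 and 1.39 in HF-low-suf liver, -1.54, -0.92 and -0.42 in HF-low-low colon and -1.75, -0.97 and -0.18 in HF-low-suf colon. It differed by 2.22 ± 0.15 (SE). C2 had ratios of 0.75, 0.94 and 1.74 in HF-low-low liver, 0.71, 0.82 and 1.54 in HF-low-suf liver, -2.23, -2.05 and -1.85 in HF-low-low colon and -2.63, -2.39 and -2.03 in HF-low-suf colon. Its colon values were close together, and it differed by 3.23 ± 0.11 (SE).

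The lectin pathway genes were all higher in liver, by 4.89 to 6.58. Mbl2 and Mbl1 encode mannose-binding lectins, which recognise sugars of microbes, and differed by 6.58 and 5.64, with Mbl1 well above background on 1 colon array and Mbl2 on all 12. Masp1 and Masp2 encode their associated proteases and differed by 5.05 and 4.89. The probes of Masp1 disagreed in size. Its main probe was well above background on 2 of the 12 colon arrays, with a mean of -2.87 ± 0.38 (SD) there. A probe designed on another Masp1 transcript, at chr16:23127084-23127143 in build mm7, passed the background limit in all 12 colons, with a mean of -0.82 ± 0.27 (SD). In liver these probes were close, at 2.18 ± 0.39 and 2.08 ± 0.35 (SD), so the second gave a difference of 2.90. Another probe differed by 2.22, and the last was not well above background on any array.

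C3, on which all complement pathways meet, had a probe printed on 10 spots. Its lowest, median and highest ratios were 0.92, 1.64 and 1.96 in HF-low-low liver, 0.78, 1.72 and 2.04 in HF-low-suf liver, -3.95, -2.73 and -2.37 in HF-low-low colon and -4.42, -3.34 and -2.63 in HF-low-suf colon. The tissues did not overlap, and the difference was 4.78 ± 0.19 (SE). A second C3 probe was too dim in colon to pass the background limit on any array, and was at least 3.69-fold higher in liver. Factor I (Cfi), the protease that inactivates C3b, had the second largest fitted difference, but it was well above background on 1 colon array only. It had ratios of 2.11, 2.56 and 2.77 in HF-low-low liver, 2.20, 2.58 and 2.69 in HF-low-suf liver, -6.45, -5.70 and -5.54 in HF-low-low colon and -6.50, -6.05 and -5.17 in HF-low-suf colon. The fitted difference was 8.40 ± 0.13 (SE), and its size rests on colon signals that were mostly not well above background.

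The terminal components build the membrane pore. C8a, a chain of C8, differed by 4.90 and was well above background on 1 colon array, while for C8b, another chain, and C9, the subunit that lines the pore, only the lower limits given above are known. C6, the component that joins C5b, had the smallest difference of the 30 members that were not counted as locally made. Its ratios were 0.11, 0.25 and 1.72 in HF-low-low liver and 0.12, 0.26 and 1.29 in HF-low-suf liver, with 1 liver of each diet far above the other 5. In colon they were -1.74, -1.36 and -1.14 on HF-low-low and -1.76, -1.31 and -0.69 on HF-low-suf. The difference was 1.79 ± 0.16 (SE), and C6 was well above background on 2 of the 12 colon arrays.

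The other secreted plasma proteins were higher in liver by 3.44 to 7.37. Itih3, a heavy chain of the inter-alpha-trypsin inhibitors that stabilise hyaluronan, had the third largest difference of all members. Its ratios were 1.79, 2.23 and 2.34 in HF-low-low liver, 1.73, 2.29 and 2.52 in HF-low-suf liver, -5.44, -5.14 and -4.92 in 5 HF-low-low colons and -5.39, -5.32 and -4.98 in HF-low-suf colon. One colon spot was an outlier and was left out, and the difference was 7.37 ± 0.10 (SE). Fetuin A (Ahsg), an inhibitor of mineral formation, differed by 5.98 and vitronectin (Vtn), an adhesion protein, by 5.43. The heavy chain genes Itih2, Itih1 and Itih4 differed by 4.71, 4.52 and 3.44.

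The locally made genes were set beside the other members. The 7 locally made genes differed by 0.75 to 4.78 between liver and colon, with a median of 2.22. The 30 others differed by 1.79 to 8.71, with a median of 5.48, or 5.35 with F13b, C8b and C9 at their lower limits. The ranges overlapped: C3 lay among the others, while C6 lay among the locally made genes. All 7 locally made genes were well above background on every colon array, which held for 13 of the other 30. Their mean ratio was -1.79 to -0.58 over the 12 colons, and that of the other 30 was -3.95 to -3.10. Genes are not replicates and no test was made between these lists.

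**Figure D2:**
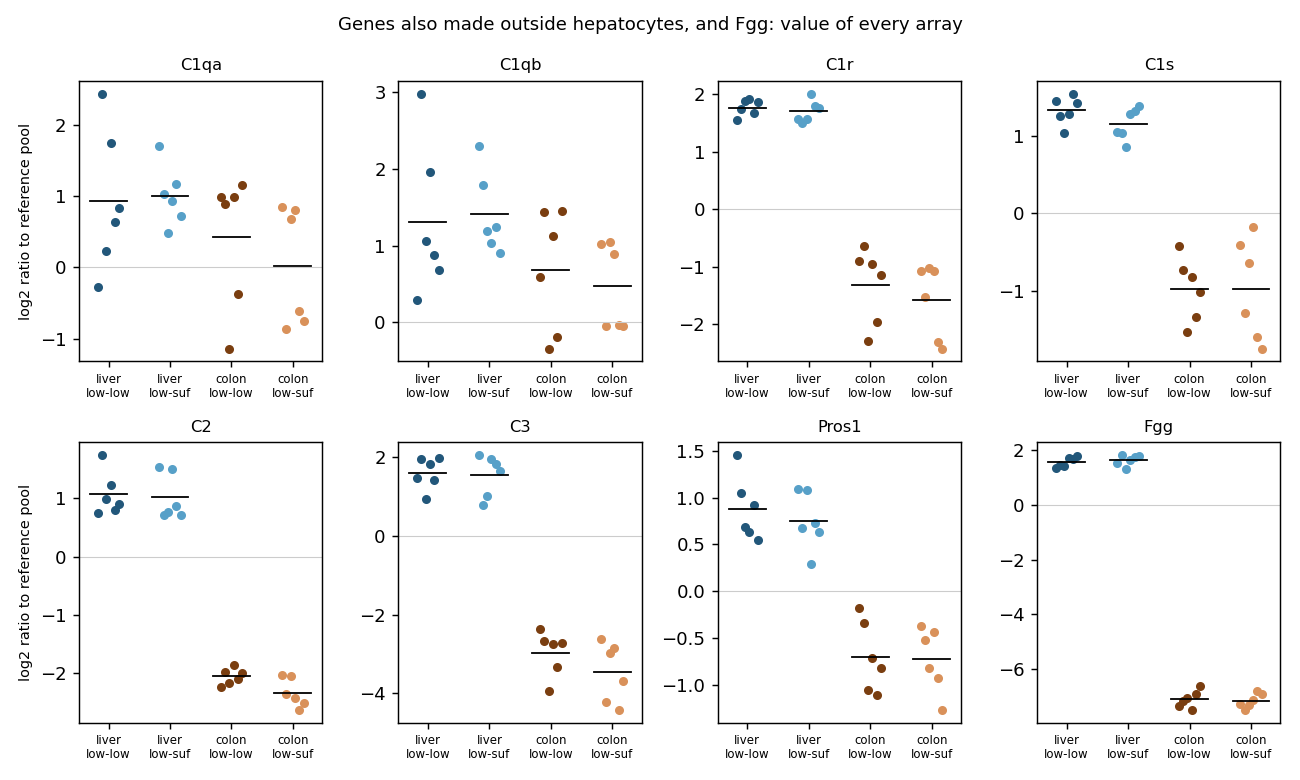
Log2 ratio to the reference pool (vertical axis, scaled per gene) of the 7 locally made genes and, for contrast, Fgg, in each array of the 4 groups. Points are single arrays and lines are means of 6. C1qa and C1qb overlap between liver and colon, and the other genes do not.

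The colons were not alike in C1qa, C1qb, C1r, C1s and C3. In C1qa, 5 colons lay between -1.14 and -0.37 and 7 between 0.68 and 1.15, with none between. The low colons were HF-low-low replicates 3 and 5 and HF-low-suf replicates 2, 5 and 6. The same 5 colons had the 5 lowest ratios of C1qb (-0.34 to -0.038, against 0.59 to 1.45 in the others), of C1r (-2.42 to -1.52, against -1.15 to -0.64), of C1s (-1.75 to -1.29, against -1.02 to -0.18) and of C3 (-4.42 to -3.34, against -2.98 to -2.37). Pros1 shared 4 of its 5 lowest colons with C1qa. C2 and Vtn, the latter not among the locally made genes, shared 3 each. Masp1, Masp2, Mbl1 and Mbl2 shared 1 each, and 23 of the 37 members shared at most 1. Both diets, both scanning days and 4 of the 6 slides were among the low colons. This grouping was seen in the values and was therefore not tested.

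Some cell type markers had the same low colons. Of 12 macrophage markers, 5 had the same 5 lowest colons (Cd68, Csf1r, Emr1, Mpeg1 and Mrc1), and 7 had at least 4 of them. Clec4f and Cd5l, markers of liver macrophages, had none of them, with Clec4f at -2.15 to -0.95 in these 5 colons and -3.82 to -1.93 in the others. Of 8 fibroblast markers, 5 had the same 5 lowest colons (Col1a1, Col1a2, Dcn, Lum and Pdgfra), and 7 had at least 4 of them. All 7 endothelium markers had at least 4 of them. Among 10 colon epithelium markers only Vil1 did, and none of 8 smooth muscle markers did. Of the 10 hepatocyte markers, Cps1 and Hpd had 4 of these colons among their own 5 lowest. The mean of the macrophage list ran from -1.26 to -0.37 over the 12 colons and that of the fibroblast list from -1.43 to 0.053. How many of all probes had the same low colons was not counted, so these counts of members and markers have no background share beside them. The part of these cell types in the complement values was not tested.

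**Figure D3:**
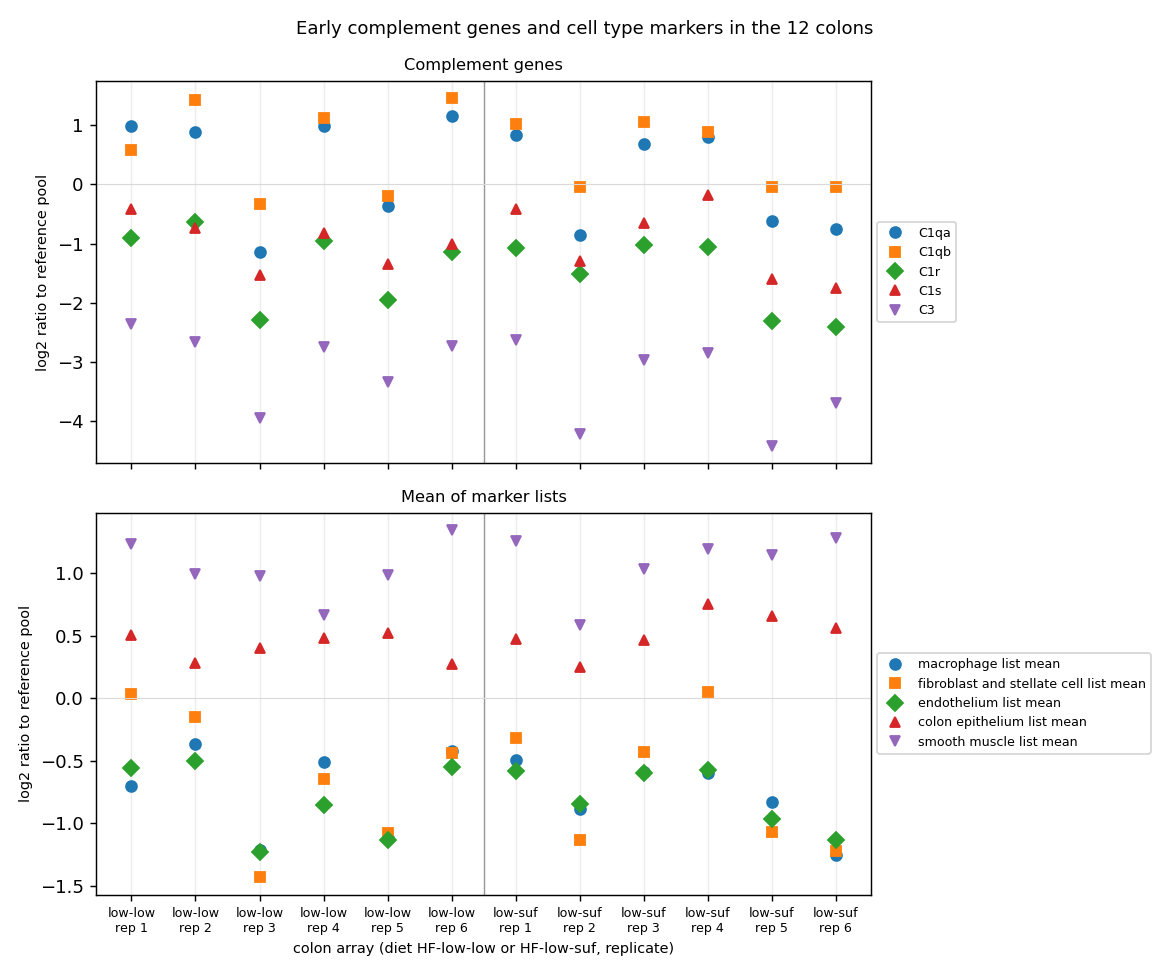
Log2 ratio to the reference pool (vertical axis) in each of the 12 colons (horizontal axis, by diet and replicate). The upper panel has the 5 complement genes, and the lower panel has the mean of each marker list. HF-low-low replicates 3 and 5 and HF-low-suf replicates 2, 5 and 6 are lowest for all 5 genes and for the macrophage and fibroblast lists, while the epithelium and smooth muscle means do not follow.

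The livers also varied. HF-low-low liver replicate 2 had the highest liver ratios of C1qa (2.43), C1qb (2.97), C2 (1.74), C6 (1.72), C9 (1.64), Ahsg (1.64), Itih1 (2.75) and Itih2 (2.28), and the highest mean of the macrophage list (1.98, against 0.16 in HF-low-low liver replicate 1, which had the lowest C1qa of the livers, at -0.27). The fibroblast list was also highest among the livers in HF-low-low replicate 2, at -1.24. HF-low-low liver replicate 3 was among the 3 lowest livers for 24 of the 37 members, and so was HF-low-suf liver replicate 3. Plg was 0.72 there, 0.71 in HF-low-suf liver replicate 2 and 1.06 in HF-low-suf liver replicate 3, but 1.59 to 2.46 in the other 9 livers. Itih1 was 0.68 in HF-low-low liver replicate 3, against a highest liver value of 2.75. The hepatocyte marker list was also lowest in that liver, at 1.603, against 1.78 to 2.25 in the others, and its part in these values was not tested.

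The second comparison asked whether sufficient selenium and folate after weaning changed these genes. Differences are HF-low-suf minus HF-low-low, and their direction follows from the dyes in the labels and from the tissue markers. The study states the same convention, a positive change being higher with supplementation. The signs computed here ran opposite to those in its lists of changed genes, whose values are not given here. In liver no member passed P below 0.01 with a fold change above 1.5, against 0.117% of all probes. In colon no member passed either, against 0.168% of all probes. No member had an unadjusted P below 0.05 in limma in either tissue, against 2.13% of all probes in liver and 2.98% in colon, and none passed after Benjamini-Hochberg adjustment, nor did any of the 41174 probes. In liver 17 members were higher and 20 lower on HF-low-suf, with a median difference of -0.010, and over all probes it was 0.0054. This split was unstable: 25 were higher and 12 lower with arrays centred on the median, and 5 higher and 32 lower without HF-low-low replicate 3. In colon 18 were higher and 19 lower, with a median of -0.00039, and over all probes it was -0.0068. Median centring gave 30 higher and 7 lower. Leaving out HF-low-suf replicate 5 gave 14 higher and 23 lower. The sign was the same in both tissues for 18 of the 37.

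The 95% intervals show what changes the arrays could have missed. In liver the interval lay within 1.5-fold in either direction for 25 members, and in colon for 20. The colon count includes Klkb1, F11 and C6, which were dim in colon, where the added offset shrinks the ratios. A narrow interval of such a gene does not bound its change. For F2, Fgb and Fgg the diet differences were 0.018, 0.063 and 0.067 in liver and -0.048, -0.0063 and -0.054 in colon. In liver the smallest P belonged to Klkb1, with a difference of -0.39 (95% interval -0.80 to 0.024, P = 0.063, exact permutation P = 0.080). F5 followed with -0.36 (P = 0.099, exact permutation P = 0.13). Without the arrays that stood apart, here HF-low-suf liver replicates 1, 2 and 4, Klkb1 differed by -0.18 and F5 by -0.12. All those left out were of that diet, so fewer HF-low-suf livers were set against all 6 HF-low-low livers. The widest liver intervals were those of C1qb, at -0.74 to 0.95, and C1qa, at -0.75 to 0.89, so that changes of 1.5-fold in either direction lay inside them.

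In colon the smallest P belonged to C2. It was -2.05 ± 0.14 (SD, n = 6) on HF-low-low and -2.33 ± 0.24 (SD, n = 6) on HF-low-suf, a difference of -0.28 (limma P = 0.062, adjusted P = 0.9999, exact permutation P = 0.039). With the second C2 probe it was 0.020. C3 had the largest difference in size, -0.50 (95% interval -1.19 to 0.19, exact permutation P = 0.22), and C1qa differed by -0.40 (-1.30 to 0.49, exact permutation P = 0.37). With the second probe the differences of Pros1 (0.059), C1r (0.055) and C1s (0.126) were also above 0, while that of C3 was -0.37. Of the 5 colons that were low in C1q, 2 were on HF-low-low and 3 on HF-low-suf. With single colons left out, the difference of C3 ran from -0.70 (without HF-low-low replicate 3) to -0.31 (without HF-low-suf replicate 5), and that of C1qa from -0.71 (without HF-low-low replicate 3) to -0.23 (without HF-low-suf replicate 2). The diet difference of a gene was also compared between the tissues. No member passed P below 0.01 with a fold change above 1.5 for that difference, against 1.25% of all probes. The smallest limma P values were those of Masp1, at -0.57 for liver minus colon (limma adjusted P = 0.78), and F5, at -0.62 (limma adjusted P = 0.78). The probe of Masp1 passed the background limit on 2 colon arrays and that of F5 on 1, and the Masp1 probe that passed it in all 12 colons gave 0.080.

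**Figure D4:**
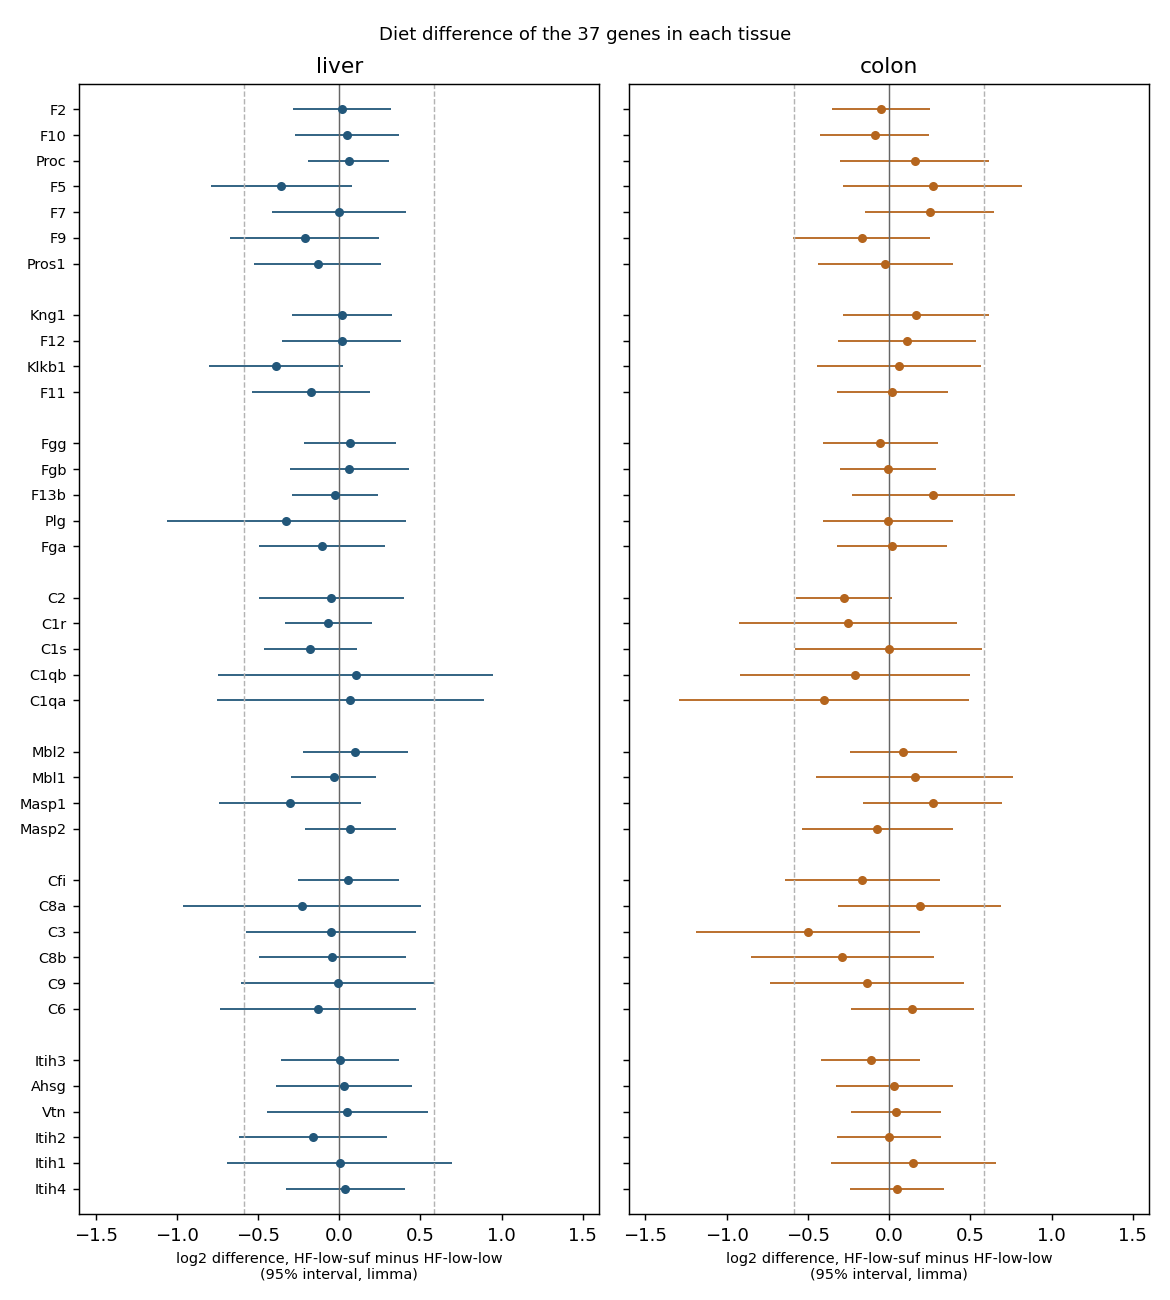
Log2 difference of HF-low-suf minus HF-low-low (horizontal axis) for each of the 37 genes in liver (left) and colon (right), with 95% intervals from limma. The dashed lines mark a 1.5-fold change. The interval of every gene includes 0 in both tissues.

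Other genes of these pathways showed where the members stood among their partners, with log2 differences given as liver minus colon. Of 25 other coagulation and fibrinolysis genes, 12 were higher in liver, 7 were higher in colon and 6 were not called. Those higher in liver included the fibrinogen-like Fgl1 (6.78), the anticoagulant cofactor Proz (6.51) and the fibrinolysis inhibitor Cpb2 (5.46), as well as Ggcx (1.58) and Vkorc1 (2.20), the enzymes of vitamin K-dependent carboxylation. Those higher in colon were the prothrombinase Fgl2 (-3.08), thrombomodulin (Thbd, -2.09), F13a1, the catalytic chain of factor XIII, tissue factor (F3, -1.24), the protein C receptor (Procr, -1.07), tissue plasminogen activator (Plat, -0.91) and the protease receptor F2rl1, which was well above background on no liver array and 3 colon arrays. Tissue factor starts clotting, and thrombomodulin and the protein C receptor restrain it at the vessel wall. The subunits of factor XIII were thus opposed, with F13a1 bright enough to pass the background limit in all 12 colons and in no liver, at least 2.69-fold higher in colon, and the carrier chain F13b on no colon array. None of the 25 genes was called for diet.

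Of 27 other complement genes measured, 16 were higher in liver, 2 were higher in colon and 9 were not called. The regulator C4bp (6.59), C5 (Hc, 6.58) and C8g (6.18) had the largest differences towards liver. Factor B (Cfb), the protease of the alternative pathway, differed by 3.21 and C4b by 4.40, although C4b is nearly identical to C4a and the probe could not be assigned with certainty. C1qc, the remaining chain of C1q, differed by 0.99 (adjusted P = 0.00071), near C1qa and C1qb. Factor D (Cfd), the adipocyte-made activator of factor B, was higher in colon, with a difference of -5.93, as was the protective receptor Cd55 (-0.65). The adipocyte marker list, which holds Cfd, averaged 1.11 to 3.22 in the colons and -1.74 to 2.75 in the livers. None of the 27 genes was called for diet. Of 19 other secreted liver proteins, 18 were higher in liver, with Apoh (8.27) and Ambp (8.09) first, and Itih5 was higher in colon (-1.83).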

How the data were processed

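Gene expression was measured on 24 two-colour Agilent arrays of 60-base probes, 1 sample (Cy3) against 1 reference pool (Cy5) per array, with no dye swap. The intensity values deposited by the authors are the mean spot signals and median local backgrounds from Feature Extraction, not normalized between arrays, and log ratios and processed signals in the same files were not used in the main fit. Probe positions are those of build mm7 in the files. The background was corrected by normexp with an offset of 50, and loess normalization within arrays followed (limma 3.58.1, R 4.3.3), with control spots (1639 of 45018) and outlier spots left out and spots of a probe averaged (41174 probes). Groups came from the labels.

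The fit for liver against colon held the 24 arrays, and mouse was its random block (correlation 0.158), and calls needed an adjusted P below 0.05 and a fold change above 1.5. Diets were compared over the 12 arrays of each tissue, with calls at P below 0.01 and fold change above 1.5, as in the study's methods. Single values were also tested exactly, two-sided, over 924 assignments of mice to diets or 4096 sign flips (smallest P 0.000488). When arrays or mice were left out, the tissue fit kept the correlation of the full fit. The diet fit was also run on simulated data, whose outcome is not used as support for the diet results. The number of arrays limits the precision. The P values for diet measure the spread between the 6 mice of a group. Those for tissue rest on the spread over the 12 mice, each of which gave both tissues.

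The members and all gene lists were chosen with earlier results of these data known. Every member is named. Values by group are given for the locally made genes, for the members with the 4 largest and 4 smallest differences and for any member called in a diet comparison. Other lists are named by their called genes or extremes. Replicate numbers are slides. The liver and colon of a mouse share its number, and the correlation of their deviations from the group means was -0.026 to 0.28. Alternatives were other background corrections and scalings, the Cy3 channel alone, outlier spots kept, a filter on dim probes, the next brightest probe, other blocks, and single arrays or the arrays that stood apart left out.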

Additional observations from a re-analysis of the deposited data

Results flagged for a closer look

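Single values lay apart from the other 5 of their group in 11 of the 148 gene and group combinations of the 37 members, where chance gives about 7.4. Of these, 5 were values of HF-low-low liver replicate 3 that lay below the rest of its group: Plg at 0.72 (next 1.93), Vtn at 0.60 (next 1.48), Itih2 at 1.16 (next 2.03), F12 at 1.96 (next 2.61) and Itih3 at 1.79 (next 2.16). In HF-low-suf liver replicate 4, which lost the most spots as outliers, F9 was 0.98 (next 1.83) and Mbl1 was 2.21 (next 2.60). C6 was 1.29 in HF-low-suf liver replicate 1 (next 0.34), the liver with the highest adipocyte markers. In HF-low-low colon replicate 1, F5 was -3.14 (next -2.27) and Masp1 was -3.74 (next -3.11). Plg was -3.30 in HF-low-suf colon replicate 5 (next -4.07), the array with the brightest reference channel. That colon had the highest colon ratio of 18 of the 37 members.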

How the results depend on the processing

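All 37 members were higher in liver in the main fit, and 35 to 37 were called over the alternatives, with 0 called higher in colon in each. The 2 that were lost in some were C1qa and C1qb, and 35 members were called under every alternative. The median difference of the members was 5.80 with signals processed by Feature Extraction and 4.45 with median centring, and 4.80 to 4.95 with single mice left out. The Feature Extraction signals moved the median of all probes from 0.019 to -0.19, and relative to that shift the members moved further from the rest. With no replicate block (no mouse term), C1qa differed by 0.75 with an adjusted P of 0.059, and with the mouse as a fixed replicate block all 37 were called. Over the diet comparisons 0 members were called in liver, colon or the difference between them under each alternative, including the fit with the replicate number as a block and each array left out.

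Many small diet differences that were not called changed sign: over all alternatives, 26 of the 37 members did so in liver and 27 in colon. Those that changed by more than their standard error are named here. With median centring, 12 colon differences turned positive, among them those of F2 (0.11), F10 (0.075), Fgb (0.15) and Itih2 (0.16). With signals processed by Feature Extraction, 8 colon differences changed sign, and by more than their standard error those of F13b (-0.18), C8a (-0.26) and Masp1 (-0.041) turned negative and that of C9 (0.17) positive. With the next brightest probe, 8 colon differences changed sign, and by more than their standard error those of Plg (0.21) and C2 (0.020) turned positive and those of Kng1 (-0.11) and Masp1 (-0.18) negative, and in liver that of Masp2 (-0.11) turned negative. Without the arrays that stood apart, all of HF-low-suf, Mbl2 in liver was -0.072. The cause was not tested.

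Same-numbered arrays of the diets shared a slide, and their deviations correlated between -0.50 and 0.53 in liver and between -0.085 and 0.24 in colon, so the number did not pair the diets. Dim signals in colon limit the size of the differences of the members not well above background there.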
